A study of Mus musculus with 32 samples.

Results

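The 10 genes described here, H2-K1, H2-D1, B2m, Tap1, Tap2, Tapbp, Psmb8, Psmb9, Psmb10 and Nlrc5, encode parts of the MHC class I antigen presentation pathway. They were taken by symbol from the first column of the 4 deposited tables. All 10 were found in all 4 tables, among 20109 symbols that the tables share, and all 10 passed the filter on low values in every comparison. A class I molecule is a heavy chain bound to beta-2 microglobulin, and it shows peptides from inside the cell to CD8 T cells. The peptides are cut by the proteasome, whose catalytic subunits are exchanged for immune subunits under interferon, then carried into the endoplasmic reticulum by the TAP transporter and loaded with the help of tapasin. NLRC5 raises the transcription of many of these genes, and tumours are known to lose class I expression as one route of escape from T cells.

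E0771 is a carcinoma line that arose in the mammary gland of a C57BL/6 mouse, and the sequenced cells were wild type or knockout for Ddr1, a collagen-binding receptor tyrosine kinase. In culture, 3 wild-type libraries (titled E0771-P, EV and Ctrl, here libraries 1, 2 and 3) stood against 2 knockout libraries (titled 3-6 and 3-7, here libraries 1 and 2). Rag1-/- mice, which make no mature T or B cells and keep natural killer and myeloid cells, carried 5 wild-type and 5 knockout tumours. C57BL/6 mice given tumours first grown in Rag1-/- mice, titled day 4, carried 4 wild-type and 5 knockout tumours. The last set, C57BL/6 tumours titled day 6, held 4 treated with IgG and 4 treated with an hDDR1 ECD antibody, and its labels give no Ddr1 genotype. The labels do not say which knockout derivative formed the tumours, whether the derivatives are clones, or the age of the mice. Nor is it stated whether libraries of a group are separate animals or cultures, so p-values measure only the spread among the libraries, part of which may be technical.

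Libraries held 18967300 to 39732635 reads. Ddr1 did not overlap between genotypes and was lower in knockouts, with normalized counts of 664.9 and 914.5 against 5854 to 7187 in culture, 686.4 to 886.0 against 3645 to 4057 in Rag1-/- hosts, and 614.6 to 1181 against 3091 to 4195 at day 4. Leukocyte markers were near 0 in culture, where Ptprc, the pan-leukocyte surface phosphatase CD45, had at most 0.0551 RPM (reads scaled to the library's total) and the 4 listed leukocyte markers summed to 0.413 to 1.30 RPM. In the tumours the same 4 markers summed to 226.4 to 2422 RPM, so tumour values are from mixtures of E0771 and host cells. In such bulk RNA, fewer cells of a type and less RNA per cell cannot be told apart. The epithelial keratin gene Krt8 was present in every library at 160.3 to 689.2 RPM, while the epithelial surface marker Epcam was low. Krt18 and Cdh1, also listed as epithelial, had at most 0.171 and 0.512 RPM in culture and 1.88 and 1.68 in Rag1-/- hosts. At day 4 Krt18 had 0.215 to 0.993 RPM in wild-type and 1.68 to 47.6 in knockout tumours. Cdh1 had 0.505 to 1.54 and 0.420 to 13.6 there. Epcam had 0.652 to 1.07 RPM in wild-type and 3.27 to 3.31 in knockout culture, 0.305 to 0.577 and 1.94 to 2.36 in Rag1-/- hosts, and 0.387 to 0.811 and 1.03 to 19.9 at day 4. At day 6 it had 2.91 to 4.35 RPM under IgG and 4.03 to 41.9 under antibody, and there alone its groups overlapped. Ddr1 at day 6 had 15.9 to 22.1 RPM under IgG and 18.5 to 28.5 under antibody. Set beside these without a test, day 4 tumours had 132.4 to 175.1 RPM in wild type and 27.9 to 49.7 in knockouts. In culture it had 171.5 to 213.1 and 19.0 to 26.7 RPM. The cause of the low Ddr1 level at day 6 was not tested.

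Across the series the class I genes were read at very different levels. Levels are compared between genes only as RPM per kilobase of the principal transcript. In wild-type culture B2m, the invariant light chain, had 681.6 ± 158.0 (SD, n = 3) RPM per kb and the heavy chain gene H2-D1 had 379.8 ± 85.3. H2-K1, the other classical heavy chain gene, had 72.6 ± 19.1 and Tapbp, which encodes tapasin, had 67.9 ± 12.0, and their libraries overlapped. Below them came Tap2 at 42.2 ± 2.36, Psmb8 at 33.6 ± 2.57, Tap1 at 26.7 ± 2.14 and Psmb10 at 14.9 ± 2.36, with no overlap between neighbours in that order. The immune subunit gene Psmb9, at 6.79 ± 3.36, and the regulator gene Nlrc5, at 4.60 ± 1.99, came last and overlapped. In wild-type tumours of Rag1-/- hosts B2m again came first, at 2332 ± 155.0 (SD, n = 5) RPM per kb, then H2-D1 at 1111 ± 38.8 and H2-K1 at 619.4 ± 14.9, with no overlap among the 3. Nlrc5 was again last, at 29.4 ± 3.73, and its libraries overlapped those of Psmb10 at 39.8 ± 4.62.

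The tumours and the cultured cells were deposited in separately normalized tables, so their levels are set side by side in RPM, with no test. H2-K1 stood at 94.9 to 152.8 RPM in wild-type culture and at 981.3 to 1036 RPM in wild-type tumours of Rag1-/- hosts, a ratio of means of 8.53. Psmb9 had the largest ratio of the 10, 10.5, from a mean of 9.18 RPM in culture to 96.6 RPM. Nlrc5 had a ratio of 6.39, Tap1 of 4.46, B2m of 3.42, Psmb8 of 3.06, H2-D1 of 2.93, Psmb10 of 2.67, Tapbp of 2.06 and Tap2 of 1.79. In wild-type day 4 tumours, Tap2, Tapbp, Nlrc5 and H2-D1 were close to their wild-type culture means, with ratios of 1.00, 1.00, 1.10 and 1.18. There H2-K1, Psmb9 and B2m had ratios of 6.90, 6.11 and 5.01. For H2-K1, B2m, Tap1, Psmb8, Psmb9 and Psmb10 every tumour library lay above every culture library, and for the other 4 genes some overlapped. The summed level of 24 other interferon response genes, which include none of the 10, spanned 237.9 to 588.9 RPM for cultured cells, 2188 to 4300 for Rag1-/- tumours, and then 665.1 to 1737 (day 4) and 2273 to 5416 (day 6). Summed leukocyte markers and interferon response genes thus stood higher in every tumour library than in culture. So did H2-K1, B2m, Tap1, Psmb8, Psmb9 and Psmb10, but not the other 4 class I genes. The part of these markers in the class I levels was not tested.

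**Figure D1:**
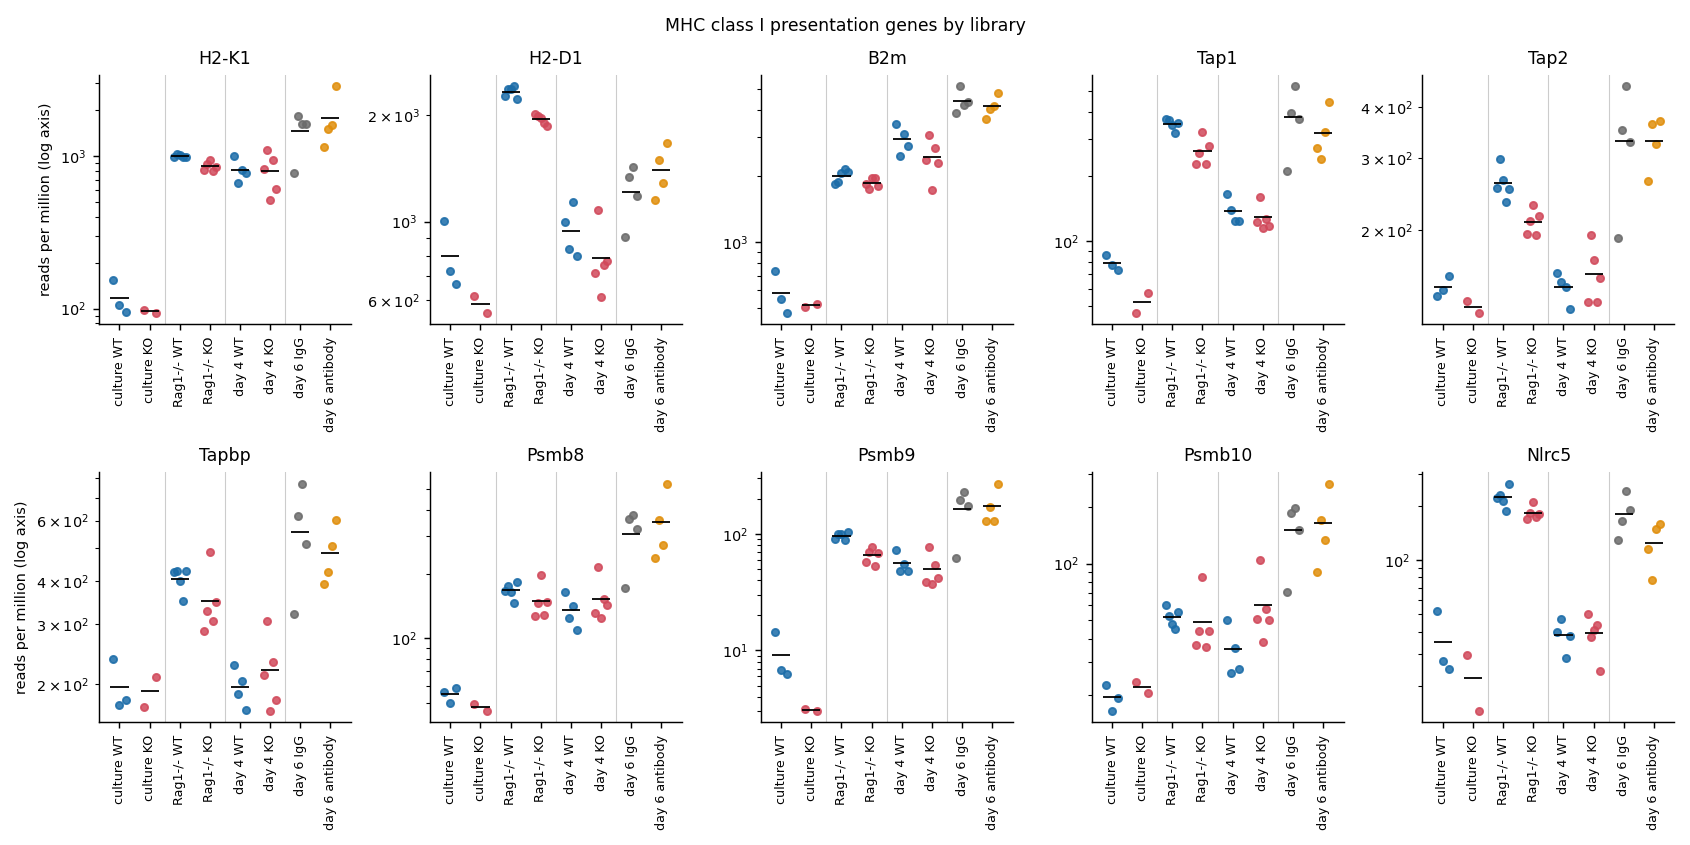
Level of each of the 10 genes in all 32 libraries, in RPM on a log axis, with 1 point per library and a bar at each group's mean. H2-K1 and Psmb9 stand far higher in all tumour groups than in culture. The Rag1-/- knockout libraries of H2-K1, H2-D1, Tap2 and Psmb9 all lie below the wild-type ones. For Tap1, knockout library 3 (321.9 RPM) lies just above wild-type library 4 (318.4 RPM).

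H2-K1 and H2-D1 encode the classical class I heavy chains of this line's C57BL/6 background. On GRCm38, H2-K1 lies at chr17:33996017-34000347 on the minus strand, 1681 kb from Ddr1, and H2-D1 at chr17:35262730-35267499 on the plus strand, 414 kb from Ddr1. Their coding sequences match at 987 of 1074 aligned bases (91.9%). Of the 50-base windows of the H2-K1 coding sequence, 12.9% occur unchanged in another H2 gene, and of those of H2-D1 23.5% do, so a share of their reads could have been placed with either gene or a relative. The 2 genes took 86.4% to 97.8% of the reads of all H2 heavy chain genes in the tables. The ratio of H2-D1 reads to H2-K1 reads lay between 5.88 and 7.01 in culture, between 2.10 and 2.48 in Rag1-/- tumours, between 0.800 and 1.40 (day 4) and between 0.580 and 1.17 (day 6). These ranges do not overlap between culture and any tumour set, nor between Rag1-/- hosts and either C57BL/6 set. Tap1, Tap2, Tapbp, Psmb8 and Psmb9 also lie on the chromosome of Ddr1, 1465 to 1752 kb from it. B2m lies on chromosome 2, and Psmb10 and Nlrc5 lie on chromosome 8. The part of nearness to the edited gene in the knockout differences below was not tested.

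The windows upstream of the 3 genes whose products make up the class I molecule are shown because they carry, in letters, what the 3 share. The sequences are from RefSeq on GRCm38.p6 and run from 250 bases before the annotated start to 50 bases after it, each 5′ to 3′ on the gene's strand. Capitals mark AANNGAAA or its reverse complement, an interferon regulatory factor core, then TGACG and ATTGG where they are separated by exactly 20 bases, and GGGANTCCC, a palindrome of the kind bound by NF-kappa B. The letters were chosen after these windows had been looked at.
H2-K1, chr17:34000298-34000597, minus strand: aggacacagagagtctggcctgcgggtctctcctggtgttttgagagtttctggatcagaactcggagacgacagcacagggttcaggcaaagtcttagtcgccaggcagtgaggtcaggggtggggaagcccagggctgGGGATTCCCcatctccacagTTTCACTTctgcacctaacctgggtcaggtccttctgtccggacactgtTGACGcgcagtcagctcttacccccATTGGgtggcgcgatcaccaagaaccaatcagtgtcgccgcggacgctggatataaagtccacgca
H2-D1, chr17:35262844-35263143, plus strand: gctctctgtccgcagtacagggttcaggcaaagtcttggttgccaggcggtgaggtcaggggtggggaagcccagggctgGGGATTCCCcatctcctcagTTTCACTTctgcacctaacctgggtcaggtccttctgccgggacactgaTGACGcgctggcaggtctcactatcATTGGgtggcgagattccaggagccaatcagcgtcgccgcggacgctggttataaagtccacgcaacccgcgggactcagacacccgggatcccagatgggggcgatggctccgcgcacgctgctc
B2m, chr2:122147437-122147736, plus strand: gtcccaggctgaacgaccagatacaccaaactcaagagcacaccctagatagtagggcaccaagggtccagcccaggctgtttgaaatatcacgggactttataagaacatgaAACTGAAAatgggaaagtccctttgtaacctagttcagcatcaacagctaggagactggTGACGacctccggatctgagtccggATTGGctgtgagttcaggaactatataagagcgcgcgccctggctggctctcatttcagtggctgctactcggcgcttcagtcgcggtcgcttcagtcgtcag

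On both strands of all 32851 windows in the RefSeq table, the interferon regulatory factor core was found in 23.9%, TGACG in 20.8%, ATTGG in 37.4%, the palindrome in 0.767%, and the spaced pair in 0.0944%, that is 31 windows of 27 genes. TGACG and ATTGG inside the spaced pair are counted in their own shares too, and the core does not overlap the pair in the 3 windows shown. H2-K1, H2-D1 and B2m were the 3 members with the spaced pair, of 8 members with a window, and all 3 also held the core. As the letters were chosen with these 3 windows in view, their matches cannot be weighed against the shares over all windows. The core starts 49 bases before the pair in both heavy chain genes and 59 bases before it in B2m. H2-K1 and H2-D1 also held the palindrome, and their windows match at 211 of 239 aligned bases (88.3%). Among 11 other class I heavy chain genes with a window, 11 held the core, 2, H2-Q6 and H2-Q7, the palindrome and 1, H2-M3, the spaced pair. These are matches of letters and not shown binding sites.

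Both heavy chain genes fell in knockout tumours of Rag1-/- hosts. H2-K1 had normalized counts of 21007, 22211, 22022, 21392 and 20807 in the wild-type libraries and 17103, 18428, 19342, 16636 and 17837 in the knockout libraries. The highest knockout library lay below the lowest wild-type library, and H2-K1 fell, with a log2 difference of −0.27 (SE 0.05, limma adjusted p = 0.00194). H2-D1 had 48394, 50835, 51414, 52849 and 46843 in wild-type tumours, against 42443, 41706, 40575, 39890 and 39188 in the knockouts. These groups did not overlap either, with a log2 difference of −0.30 (SE 0.05, limma adjusted p = 0.00125). Quantile normalization took H2-D1 to −0.11 with a limma adjusted p of 0.0515, and ended that call. In all, 6 of the 10 genes fell in this comparison and none rose, beside 11.4% of 12795 genes that fell and 22.7% that were called in either direction. All 10 differences were below 0, beside 50.7% of all genes, with a median of −0.28 against 0.00 over all genes. In normalized counts, 5 of the 10 had groups that did not overlap with knockout lower, beside 7.14% of all genes.

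In the other comparisons neither heavy chain gene passed the test. In culture H2-D1 had 34387, 24815 and 22458 in wild-type libraries, against 21082 and 19348 in the knockouts, with a log2 difference of −0.41 (SE 0.18, limma adjusted p = 0.282). The wild-type library 1 stood well above the other two. H2-K1 was likewise highest in that library, with 5242, 3585 and 3202 against 3361 and 3292, but wild-type library 3 lay below both knockouts, so its groups overlapped. At day 4 H2-D1 was at −0.33 (95% interval −0.71 to 0.04) and H2-K1 at −0.13 (−0.59 to 0.34). At day 6 H2-K1 ranged from 23401 to 55225 under IgG and from 34063 to 86301 under antibody, a difference of 0.27 with a 95% interval of −0.49 to 1.03. H2-D1 at day 6 was at 0.21 (−0.22 to 0.63).

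B2m, the light chain of every class I molecule, was not called by limma in any comparison. Its counts in Rag1-/- hosts were 39363, 40371, 44515, 46907 and 43725 in wild-type tumours, against 38760, 36520, 40171, 41214 and 37696 in the knockouts. The groups overlapped, and the difference of −0.14 (SE 0.06) had a limma adjusted p of 0.0953. DESeq2 on recovered reads, which called 24.9% of all genes here, gave B2m an adjusted p of 0.0443. B2m differed by −0.14 in culture, −0.35 at day 4 (95% interval −0.73 to 0.03) and −0.08 at day 6. The gene (chr2:122147686-122153083, plus strand) lies within the span of Patl2 on the opposite strand, and whether counting used strand is not given in the sources used here.

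Tap1 and Tap2 encode the paired chains of the TAP peptide transporter, and Tapbp encodes tapasin, which ties empty class I molecules to it. In the GENCODE annotation, Tap1 (chr17:34187553-34197225, plus strand) and Psmb9 (chr17:34181987-34187764, minus strand) start next to each other on opposite strands. They overlap there by 212 bases, so reads there are uncertain. Their RefSeq promoter windows share 275 bases, and the window of Tap1 is shown because it holds the RefSeq starts of both genes. The GENCODE start of Psmb9 lies outside it. Both genes had the 2 largest differences of the 10 in Rag1-/- hosts.
Tap1, chr17:34187306-34187605, plus strand: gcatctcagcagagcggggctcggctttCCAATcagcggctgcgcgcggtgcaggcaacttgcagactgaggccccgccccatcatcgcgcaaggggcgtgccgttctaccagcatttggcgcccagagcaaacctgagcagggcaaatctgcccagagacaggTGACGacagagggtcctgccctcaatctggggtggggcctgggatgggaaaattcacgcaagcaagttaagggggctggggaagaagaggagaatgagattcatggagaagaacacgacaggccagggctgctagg
Capitals in it mark CCAAT, the reverse complement of ATTGG, and TGACG, which lie too far apart for the spaced pair. The core and the palindrome were not found in these 300 bases.

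For Tap1, Rag1-/- tumours had normalized counts of 7900, 7836, 7535, 6940 and 7481 in wild-type tumours, against 4835, 5371, 6635, 4796 and 5831 in the knockouts. In these counts all knockout libraries lay below all wild-type ones, with knockout library 3 the closest. In RPM, knockout library 3 (321.9) lay just above wild-type library 4 (318.4). Tap1 fell by 0.47 (SE 0.08, limma adjusted p = 0.00124). Tap2 (chr17:34203527-34216321, plus strand) had 5413, 6388, 5717, 5099 and 5303 against 4126, 4418, 4752, 4086 and 4539. These groups did not overlap, and Tap2 fell by 0.35 (SE 0.06, limma adjusted p = 0.00184). Tapbp (chr17:33915899-33929292, plus strand), whose span overlaps Zbtb22 on the same strand by 3422 bases, had 9063, 9188, 8612, 7634 and 8961 against 6029, 6868, 9987, 6444 and 7274. Its knockout library 3 was the highest of all 10 libraries while the other 4 lay below every wild-type one, and the difference of −0.27 (SE 0.11) had a limma adjusted p of 0.0898.

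In culture Tap1 had 2942, 2652 and 2473 in wild-type libraries, against 1591 and 2009 in the knockouts. The groups did not overlap, and the difference was −0.59 (SE 0.14, limma adjusted p = 0.0894), which did not pass. DESeq2 on recovered reads called it (adjusted p = 0.00478), and so did the authors' deposited table (adjusted p = 0.0300). Without wild-type library 1 limma called it too, at −0.52 (adjusted p = 0.0431). That fit called 1655 of 11736 genes, beside 39 of 11911 with all libraries. Over all libraries left out in turn the limma adjusted p of Tap1 ran from 0.0431 to 0.349. Tap2 differed by −0.13 and Tapbp by −0.01 in culture. At day 4 the differences were −0.16 for Tap1, 0.04 for Tap2 and 0.07 for Tapbp, and at day 6 they were −0.21, 0.05 and −0.16, with groups that overlapped and none called.

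Psmb8, Psmb9 and Psmb10 encode the catalytic subunits that take the places of the constitutive subunits encoded by Psmb5, Psmb6 and Psmb7. Psmb9 had the largest difference of the 10 genes in Rag1-/- hosts. Its normalized counts were 1930, 2148, 2156, 1937 and 2177 in wild-type tumours, against 1222, 1472, 1589, 1121 and 1433 in the knockouts. No library of one group reached the other, and Psmb9 fell by 0.61 (SE 0.08, limma adjusted p = 0.000313), to 0.656 of the wild-type level. Psmb8 (chr17:34197721-34201454, plus strand) had 3540, 3762, 3559, 3199 and 3854 against 2668, 3068, 4056, 2705 and 3083. Knockout library 3 was again the highest of all, and the difference of −0.22 (SE 0.10) had a limma adjusted p of 0.122. Psmb10 (chr8:105935735-105938444, minus strand) had 1280, 1136, 1027, 979.1 and 1162 against 776.6, 921.0, 1750, 758.1 and 920.2. Knockout library 3 stood at 1750 and the other 4 knockout libraries lay below all wild-type ones, with a difference of −0.19 (SE 0.18, limma adjusted p = 0.472).

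Without knockout library 3, Tapbp, Psmb8 and Psmb10 were also called, at −0.39, −0.31 and −0.40 (adjusted p by limma of 0.00119, 0.00363 and 0.00501), which made 9 of 10. As each library of this table was left out, 1984 to 3093 of all genes were called. Knockout library 3 was the highest of its group for 8 of the 10 genes. Leaving it out thus lowers their knockout means, and the added calls are no separate evidence of a fall. It also had the highest sum of the 24 other interferon response genes among all Rag1-/- libraries, 4300 RPM against 2188 to 2774 in the other knockout and 2639 to 4083 in the wild-type tumours. Its 4 leukocyte markers summed to 320.1 RPM against 228.3 to 294.0 in the other knockout and 255.3 to 311.9 in the wild-type tumours, and its 6 MHC class II genes summed to 639.9 RPM against 259.4 to 500.0 and 451.1 to 829.9. The part of these signals in the class I values was not tested.

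**Figure D2:**
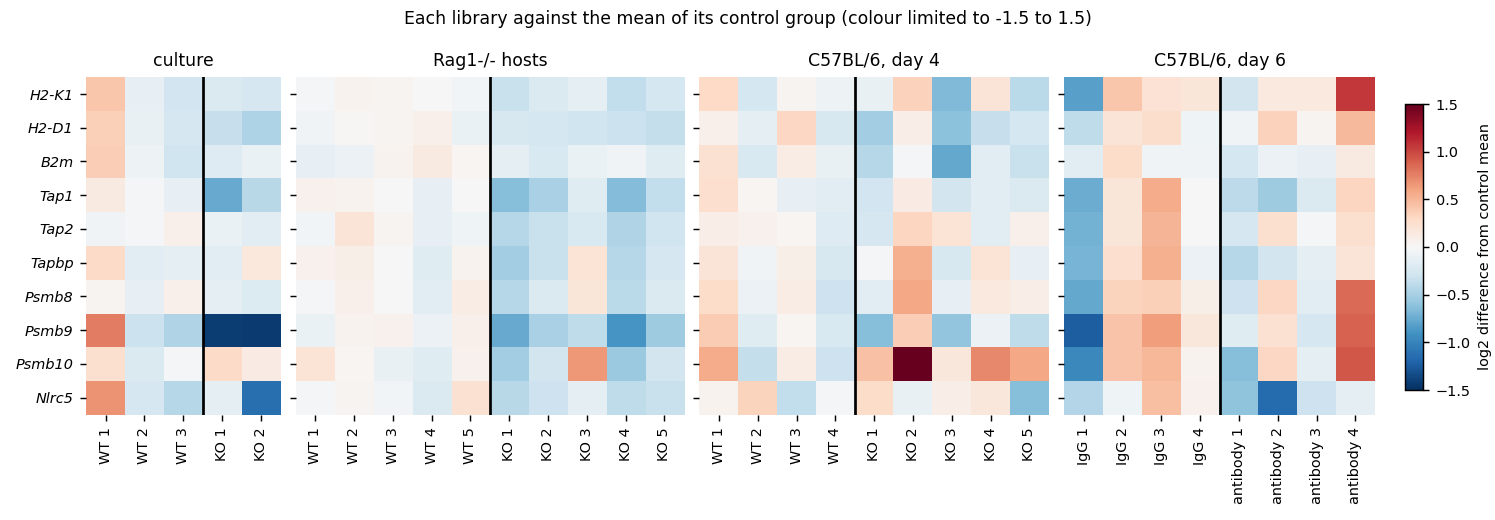
Log2 difference of each library's normalized count (plus 1) from the mean of its control group, for the 10 genes, in the 4 tables; a black line parts control from knockout or antibody libraries. In Rag1-/- hosts the knockout columns are blue for nearly all genes except Tapbp, Psmb8 and Psmb10 in library 3, while at day 4 and day 6 whole libraries are high or low in either group.

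In culture Psmb9 had 494.5, 232.7 and 212.7 in wild-type libraries, against 108.0 and 107.1 in the knockouts. The groups did not overlap, but wild-type library 1 had more than the other two, and the difference of −1.42 (SE 0.37) did not pass (limma adjusted p = 0.110). DESeq2 on recovered reads called it (adjusted p = 0.00739), as did the authors' deposited table (adjusted p = 0.00866). Without wild-type library 1 limma called it, at −1.04 (adjusted p = 0.0214), in a fit that called 1655 of 11736 genes. Leaving out each library in turn gave an adjusted p of 0.0214 to 0.354. Psmb8 differed by −0.17 and Psmb10 by 0.21, and neither was called.

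Set against the constitutive subunits, per kb, all 3 immune subunits were below their counterparts in culture, and in tumours Psmb8 alone was level with its counterpart or above it. The ratio of Psmb9 to Psmb6 was 0.0207 to 0.0397 in wild-type culture, against 0.00731 and 0.00751 in the knockouts. In Rag1-/- hosts it was 0.379 to 0.451 in wild-type and 0.246 to 0.290 in knockout tumours, and these groups did not overlap. At day 4 it was 0.109 to 0.169 and 0.0747 to 0.124, and at day 6 0.150 to 0.491 under IgG and 0.219 to 0.410 under antibody, with overlap in both. The ratio of Psmb8 to Psmb5 was 0.638 to 0.681 and 0.522 to 0.554 in wild-type and knockout culture and 1.00 to 3.74 over all tumour libraries. The ratio of Psmb10 to Psmb7 did not exceed 0.0672 in culture or 0.838 in any tumour.

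**Figure D3:**
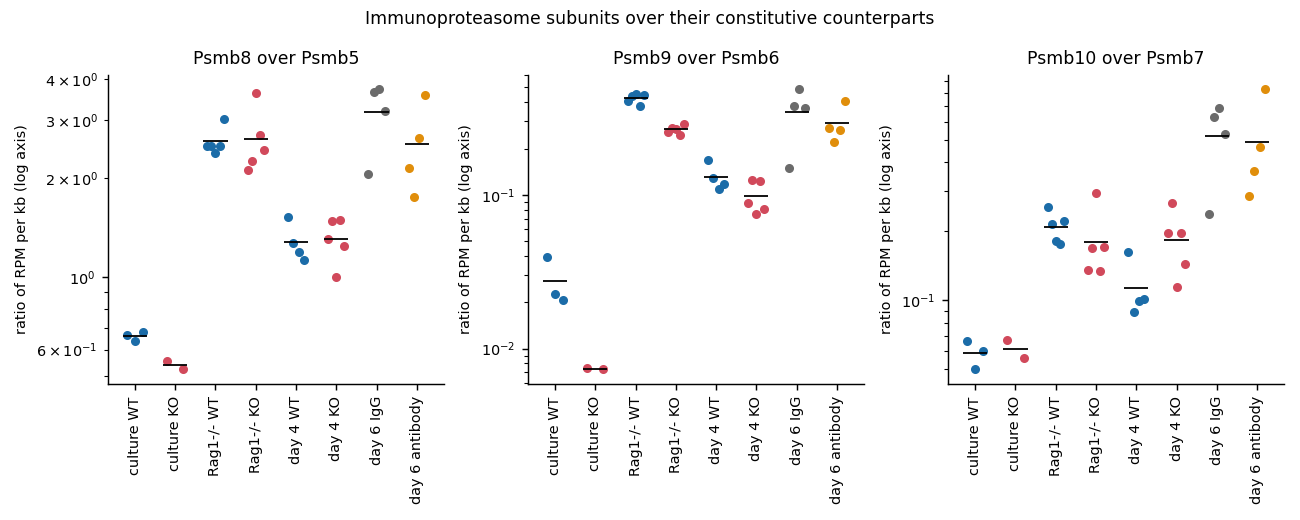
Ratio of each immune proteasome subunit to its constitutive counterpart, both as RPM per kb of principal transcript, by library on a log axis; bars are group means. Psmb9 over Psmb6 is below 0.04 in culture and parts wild-type from knockout tumours in Rag1-/- hosts, while Psmb8 over Psmb5 and Psmb10 over Psmb7 overlap between the genotypes there.

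At day 4 Psmb10 had the largest difference of the 10. Its normalized counts were 1179, 626.6, 867.4 and 648.6 in wild-type tumours, against 1093, 2299, 900.0, 1320 and 1200 in the knockouts. Knockout library 2 was highest and the groups overlapped, with a difference of 0.68 (SE 0.28, unadjusted p = 0.0322 and adjusted p = 0.295 by limma). Psmb9 was at −0.27 and Psmb8 at 0.11. Of the 10 genes, limma called 0 at day 4, beside 0.0354% of 14105 genes, and 1 had an unadjusted p under 0.05, beside 15.0% of all genes. edgeR and DESeq2 on recovered reads, which called 0.0284% and 4.88% of all genes, also called 0 of the 10. The groups overlapped for all 10, beside 5.76% of all genes that did not overlap. Knockout was below wild type in 6 of 10, beside 49.7% of all genes, and in 9 of 10 without knockout library 2. Wild-type library 1 was the highest of its group for 8 genes and knockout library 2 for 9, and these libraries summed to 1340 and 1507 RPM for the MHC class II genes, against 301.8 to 448.3 in the other wild-type and 312.2 to 1416 in the other knockout tumours. The part of this signal in the class I values was not tested.

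Nlrc5 (chr8:94434356-94527272, plus strand) encodes the class I transactivator. Its counts in Rag1-/- hosts were 4705, 4889, 4593, 4087 and 5569 in wild-type tumours, against 3546, 3828, 4328, 3641 and 3758 in the knockouts. Knockout library 3 overlapped the lowest wild-type library and the other 4 did not, and Nlrc5 fell by 0.32 (SE 0.07, limma adjusted p = 0.00856). In culture it had 1792, 942.8 and 836.3 against 1015 and 511.4, with a difference of −0.64 and a 95% interval of −1.57 to 0.29. At day 4 it differed by −0.04 (−0.50 to 0.41). At day 6 it had 3868, 4997, 7156 and 5466 under IgG and 3442, 2347, 4219 and 4739 under antibody. These groups overlapped, and the difference of −0.56 (SE 0.25) had an unadjusted p of 0.0488 and an adjusted p of 0.517 by limma.

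**Figure D4:**
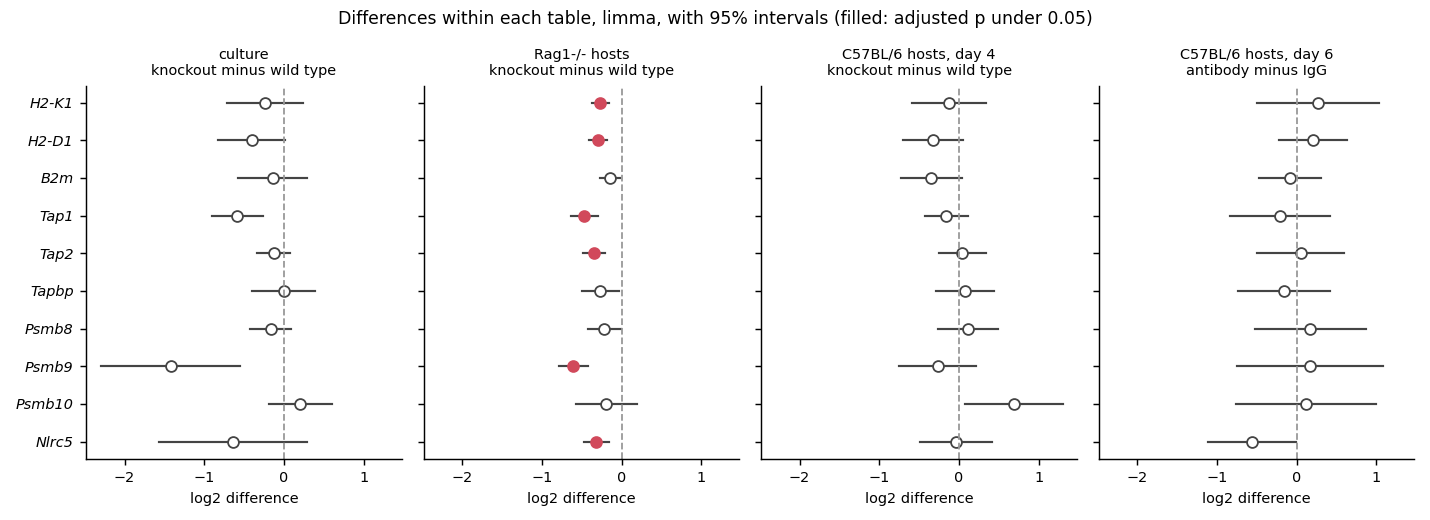
Log2 differences of the 10 genes in the 4 comparisons from limma on log2(normalized count + 1), with 95% intervals; filled points have an adjusted p under 0.05. Filled points occur in Rag1-/- hosts for H2-K1, H2-D1, Tap1, Tap2, Psmb9 and Nlrc5, all below 0, and the intervals at day 6 are the widest for most genes.

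Taking the 10 together, limma called 0 in culture, beside 0.327% of 11911 genes, of which 0.311% were lower, and 2 of the 10 had an unadjusted p under 0.05, beside 18.8% of all genes. edgeR on recovered reads called 0, beside 0.210% of all genes, and DESeq2 called 2, Tap1 and Psmb9, beside 8.89%. Knockout was below wild type in 9 of 10, beside 49.5% of all genes, with a median of −0.20, and in 7 of 10 without wild-type library 1. Groups did not overlap, with knockout lower, for 5 genes, H2-D1, Tap1, Tap2, Psmb8 and Psmb9, beside 17.7% of all genes. Wild-type library 1 was the highest of the 3 wild-type libraries for 8 of the 10, and its other interferon response genes summed to 588.9 RPM against 266.1 and 287.7 RPM. The part of that library's interferon signal in these differences was not tested.

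At day 6 limma called 0 of the 10, beside 0% of 14155 genes, and 1 had an unadjusted p under 0.05, beside 8.60% of all genes. edgeR and DESeq2 on recovered reads called 0 of the 10, beside 0% and 1.17% of all genes. The groups overlapped for all 10, beside 3.90% of all genes that did not overlap. Antibody was below IgG in 4 of 10, beside 51.6% of all genes, but in 9 of 10 without IgG library 1 and in 8 of 10 without antibody library 4. The median difference was 0.08, and it ran from −0.20 without IgG library 1 to 0.25 without IgG library 3. IgG library 1 was the lowest of its group for all 10 genes and antibody library 4 the highest of its group for all 10. IgG library 1 had 10.3 RPM over 4 T cell markers and 1575 RPM over the MHC class II genes, the lowest of its group. Antibody library 1 was similarly low, with 12.4 and 1561 RPM, the lowest of the antibody group. It was also the lowest of that group for 7 of the 10 genes. Antibody library 4 had 200.9 and 20082 RPM, the highest of all day 6 libraries. The part of these marker signals in the class I values was not tested. Of the other 24 interferon response genes, 23 had differences below 0 and 14 an unadjusted p under 0.05, with none called, and their median was −0.72 while that of the class I genes was 0.08.

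The knockout effect in C57BL/6 hosts at day 4 was also set against that in Rag1-/- hosts, gene by gene, from the limma estimates and standard errors of the 2 tables. The difference was called for 0 of the 10, beside 2.99% of 11247 genes, and 2 of the 10 had an unadjusted p under 0.05, beside 18.7% of all genes. edgeR on recovered reads, which called 4.04% of all genes, also called 0 of the 10. Of the 10 differences 2 were below 0, beside 51.2% of all genes, and 8 were above it. Their median was 0.31 against −0.01 over all genes, and it ran from 0.22 to 0.40 over the alternative settings and as each library was left out. The largest differences were those of Psmb10, 0.88 (95% interval 0.19 to 1.57, adjusted p = 0.163), and Tap2, 0.38 (0.07 to 0.70, adjusted p = 0.180). The falls called in Rag1-/- hosts and not at day 4 are thus not shown, gene by gene, to differ between the hosts.

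Other genes of the pathway were called in both directions in Rag1-/- hosts, in each list at a share below the 22.7% of all genes called there. Of 9 peptide loading and trimming genes, 1 rose and 1 fell, the endoplasmic reticulum chaperone genes Canx by 0.23 (limma adjusted p = 0.00500) and Calr by −0.17 (0.0251). Of 9 genes of the constitutive proteasome and its activators, 2 rose and none fell, Psme3, a proteasome activator subunit, by 0.18 (0.00845) and Pomp, a proteasome assembly factor, by 0.16 (0.0492). Of 10 tested other heavy chain genes, Mr1, which presents vitamin metabolites, rose by 0.43 (0.00204) and H2-T10 fell by 0.47 (0.00730). Among 18 transcriptional regulators 1 rose and 3 fell. Of these, Irf9 and Stat2, which carry interferon signals to the nucleus, fell by 0.31 and 0.40 (0.00506 and 0.0299), and Irf8, a factor of myeloid cells, rose by 0.49 (0.000487). Of 11 tested interferon ligand, receptor and signalling genes none was called, and Ifngr1, the interferon gamma receptor chain, was at −0.11 (0.152).

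Of the 24 other interferon response genes, 4 fell and none rose in Rag1-/- hosts, beside 11.4% of all genes that fell, namely Bst2, Oas2, Oasl2 and Oas1a, by 0.48, 0.52, 0.50 and 0.45 (limma adjusted p of 0.00238, 0.0138, 0.0298 and 0.0499). The 6 MHC class II genes, typical of antigen-presenting cells, summed to 31.4 to 34.1 RPM in knockout and 39.2 to 53.5 RPM in wild-type culture. Their sums in tumours are thus not a measure of host cells alone. Of these 6, Cd74 fell by 0.69 and H2-Ab1 by 0.65 in Rag1-/- hosts (limma adjusted p of 0.0313 and 0.0496). None of the 4 leukocyte, 5 macrophage or 4 natural killer cell markers was called there, nor were the tested markers of T cells, B cells, neutrophils, dendritic cells and endothelium. Of 3 fibroblast markers 1 rose, Pdgfra, a growth factor receptor gene, by 0.38 (limma adjusted p = 0.0190), while Dcn was at −0.45 and Lum at −0.59. The 3 summed to 161.6 to 186.8 RPM in knockout and 104.2 to 169.3 in wild-type tumours, which overlapped. Cultured cells also had 102.624 to 109.35 RPM (knockout) and 63.0 to 94.6 RPM (wild type) over these 3, with no read of Lum. The sums are thus not a measure of host fibroblasts alone. Of 4 epithelial markers 1 rose, Epcam, by 2.15 (limma adjusted p = 3.02e-05). The 4 summed to 244.6 to 309.9 RPM in knockout and 223.0 to 320.8 in wild-type tumours. Krt8 alone made up 241.3 to 305.6 and 219.3 to 318.6 RPM there. The part of the cell mixture in the class I values was not tested. In culture, at day 4 and at day 6 limma called none of the genes on these lists, and in culture the gene of smallest p is given for 5 of the 6 lists other than class II, namely Canx at 0.33, Psme3 at 0.47, H2-T10 at −1.12, Tyk2 at −0.31 and Cxcl10 at −1.54, with limma adjusted p of 0.0845 to 0.299. Of the 17 transcriptional regulators tested in culture, 2 had an unadjusted p under 0.05. The corresponding genes at day 4 were Tapbpl at 0.41, Psmd1 at 0.25, H2-Q2 at −0.83, Nfyb at −0.43, Jak1 at −0.30 and Gbp2 at 0.87 (0.141 to 0.381). At day 6 they were Erap1 at −0.47, Psmb5 at 0.51, H2-Q10 at 2.01, Stat2 at −0.82, Jak2 at −0.43 and Ifit2 at −0.91 (0.517 to 0.521). At day 4 the median of the other interferon response genes was 0.50, with 2 of 24 below 0, while that of the class I genes was −0.09.

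How far the 10 genes deviated together within groups was described by each gene's correlation with the mean of the other 9 after group means were taken off, over 5 libraries in culture, 10 in Rag1-/- hosts, 9 at day 4 and 8 at day 6. Libraries share depth and cell mixture, so no test is given. Tapbp had 0.97 in both Rag1-/- hosts and day 4 and 0.95 at day 6, and Psmb9 had 0.81, 0.97 and 0.96. In culture Psmb9, H2-D1 and H2-K1 had 0.99, 0.98 and 0.98, while Tap2 was at −0.65, Psmb8 at 0.26 and Tap1 at 0.40. H2-D1 and B2m were at −0.29 and −0.21 in Rag1-/- hosts, and Nlrc5 was at −0.21 and Tap2 at 0.37 at day 4. All values not among these 7 low ones lay between 0.60 and 0.99. Of 9014 other genes with a mean of 50 or more in all tables, those most like the mean of the 10, by the mean correlation over the 4 tables, were Ube2l6 (0.92), Igtp (0.92), H2-M3 (0.91), Gbp2 (0.89), Ifi30 (0.88), Gbp3 (0.87), Irgm1 (0.87) and Rpn1 (0.87). Ube2l6 encodes the conjugating enzyme for ISG15, Igtp and Irgm1 immunity-related GTPases, Gbp2 and Gbp3 guanylate-binding proteins, Ifi30 a lysosomal thiol reductase and Rpn1 a subunit of the oligosaccharyltransferase.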

How the data were processed

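RNA of 32 libraries in 8 groups was prepared with a TruSeq stranded mRNA kit, per the labels' protocols. Build mm10 and the tools CASAVA, TopHat and DESeq2 are named in the submitters' processing notes, and how reads were counted is not given in the sources used here. Groups follow the titles and characteristics. The authors deposited 4 separately normalized tables of signal values, that is normalized read counts, with their own p-values, deposited as p and adjusted p. A further 18 columns with the authors' means and folds stayed unused. Each library's values were whole multiples of 1 step, and dividing by it gave whole reads within 0.01 for 100% of values. These recovered reads gave depth and RPM, 18967300 to 39732635 reads per library.

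Each comparison was fitted within its table with limma 3.58.1 (R 4.3.3, with the trend option), after adding 1 to each deposited value and taking log2. Genes averaging at least 10 entered, with Benjamini-Hochberg adjustment over all of them and calls at an adjusted p under 0.05, two-sided. This scale understates the change of weakly read genes. The design had allowed for normalized values. The 10 genes were all named. Of the other lists, called genes were named, up to 4 of smallest p, and where none was called the 1 of smallest p, and the 8 genes most like the 10 were named as well. For marker lists only those a result turns on are named, and 1 gene the rule picked is not reported here. The genes, lists and tests were chosen with earlier results of these data known. The alternatives changed the pseudocount (0.5, 5), the filter (none, 50), the scaling (upper-quartile, quantile), the trend (off), the tool (edgeR 4.0.16, DESeq2 1.42.0, both on recovered reads), the design (replicate block) or the libraries (leaving out each). Positions and lengths are from the GENCODE annotation of GRCm38 (the build named mm10), with the longest principal transcript as the length. Python 3.11.15, pandas 2.3.3, Biopython 1.88 and matplotlib 3.10.9 were used. The limma step was tested on simulated data.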

Additional observations from a re-analysis of the deposited data

Results flagged for a closer look

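In the 60 sets of 4 or 5 libraries examined over the 10 genes, 1 library stood farther from the rest of its group than Dixon's criterion allows. Knockout library 3 of the Rag1-/- tumours had 1750.02 normalized counts of Psmb10, an immune proteasome subunit gene, while the other 4 knockout libraries had 758.1 to 921.0, and the gap made up 0.836 of the group's range. Chance flags about 1 in 20 such groups. The same library had the highest sum of other interferon response genes in that table, 4300 RPM, and the part of that signal in the Psmb10 value was not tested.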

How the results depend on the processing

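Over the alternative settings, 990 values of single genes were recomputed: 948 kept their direction and side of the threshold, 8 gained a call, 1 lost it (H2-D1 in Rag1-/- hosts under quantile normalization) and 33 changed sign, of which 0 were called. None of the sign changes was in Rag1-/- hosts. By setting, Nlrc5 at day 4 became 0.0039 with upper-quartile rescaling and 0.11 with the replicate block, H2-K1 at day 4 0.0099 with quantile normalization, Tap2 at day 6 −0.0054 by edgeR, and H2-D1 between hosts 0.0037 with upper-quartile rescaling and 0.0014 by edgeR. Ddr1 between hosts, called in neither fit, became −0.057 with the block. As each library was left out, these differences spanned 0: in culture B2m (−0.29 to 0.038) and Tapbp (−0.17 to 0.15); at day 4 H2-K1 (−0.24 to 0.0071), Tap2 (−0.032 to 0.11), Tapbp (−0.044 to 0.15), Psmb8 (−0.0083 to 0.20) and Nlrc5 (−0.17 to 0.11); at day 6 H2-K1 (−0.0055 to 0.45), B2m (−0.16 to 0.0072), Tap2 (−0.19 to 0.22), Tapbp (−0.39 to 0.019), Psmb8 (−0.084 to 0.33), Psmb9 (−0.24 to 0.38) and Psmb10 (−0.21 to 0.37); and between hosts H2-D1 (−0.14 to 0.069) and Ddr1 (−0.057 to 0.19). The count of class I genes called was 0 in culture, 2 by DESeq2, and 0 to 2 as each library was left out, with 2 without wild-type library 1. It was 6 in Rag1-/- hosts, 5 to 7 over the alternatives and 6 to 9 as each library was left out, and 0 throughout at day 4, at day 6 and for the difference between hosts. Counts over all genes moved by over 1.5 times: in culture 39 became 12 without the trend, 25 by edgeR, 1059 by DESeq2 and 2 to 1655 as libraries were left out (1655 without wild-type library 1); at day 4, 5 became 9 without a filter, 689 by DESeq2 and 3 to 50 (50 without knockout library 5); at day 6, 0 became 166 by DESeq2 and 5 without antibody library 1; and between hosts 336 became 154 to 472. The cause was not tested.

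Replicate numbers share no stated source, and same-numbered libraries had correlations between −0.20 and 0.15 (Rag1-/- hosts), −0.17 and 0.14 (day 4) and −0.20 and 0.45 (day 6), with not every library closest to its own number. With the number as a block, 6, 0 and 0 of the 10 genes were called in these tables and 0 between hosts, 1 gene in all was called at day 4, where knockout library 5 has no partner and drops out, and 198 were called between hosts. No paired analysis was possible in culture because its titles carry no shared numbers. With 2 to 5 libraries a group, small differences could not be told from the spread between libraries.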
